A study of Mus musculus with 6 samples.

Results

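The Tnf, Lta and Ltb locus is a stretch of mouse chromosome 17 that holds the genes of tumour necrosis factor and of both lymphotoxins. Its members are all regions of the deposited methylation tables that overlap chr17:35330000-35344000 (build mm9, as for all positions here unless another build is named), and these are 16 of 209687 regions. The locus was chosen because regions inside Tnf differed between the AOM/DSS and control libraries, so the values of that comparison are given as a description, without a test. Of the 16 regions, 14 had a value in all 6 libraries, with 167 CpGs between them. Of the other 2, the region chr17:35330846-35330950 lacked a value in control replicate 1 and AOM/DSS replicate 1, and the region chr17:35342112-35342173 lacked one in control replicate 1.

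The libraries came from colon epithelial cells of C57BL/6 mice aged 18 weeks, with 2 libraries in each of 3 groups. Control mice are labelled only as such. AOM/DSS mice received azoxymethane (AOM), a colon carcinogen, and dextran sulfate sodium (DSS), which inflames the colon. The third group received AOM, DSS and also curcumin, a polyphenol of turmeric. The sources used here give no doses or schedules and do not say whether a library came from 1 mouse or several, so the spread between the 2 libraries of a group may be technical. In every group the proximal segment and the tumours of the right colon were cut away first, the rest was scraped, and low-speed washes served to reduce blood cells. The epithelial label was not checked against marker genes, because no annotation of the files' build was used here. A change in the share of a cell type and a change within cells cannot be told apart in such a scraping.

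Tumour necrosis factor, the product of Tnf, is a cytokine made mostly by macrophages and T cells that drives intestinal inflammation, and antibodies against it are used in inflammatory bowel disease. Lta encodes lymphotoxin alpha, which is secreted as a trimer that binds the TNF receptors, or joins the membrane protein encoded by Ltb, lymphotoxin beta, to signal through the lymphotoxin beta receptor in the building of lymphoid tissue. Methylation of the cytosine in CpG pairs is usually low at the start of genes that are open to transcription and higher in the bodies of genes and between them.

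The promoters of Tnf and Ltb are shown because their CpGs fix where the measured regions lie in each gene. Both are the 250 bases before the gene's start from RefSeq (build GRCm38.p6; Tnf chr17:35202008-35202257 on the minus strand, Ltb chr17:35194257-35194506 on the plus strand), printed 5′ to 3′ with every CpG in capitals.
Tnf: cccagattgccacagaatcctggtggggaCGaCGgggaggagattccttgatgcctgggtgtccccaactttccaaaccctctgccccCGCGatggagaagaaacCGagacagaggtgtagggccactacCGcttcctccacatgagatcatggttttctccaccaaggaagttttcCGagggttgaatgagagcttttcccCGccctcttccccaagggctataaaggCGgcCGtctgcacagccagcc
Ltb: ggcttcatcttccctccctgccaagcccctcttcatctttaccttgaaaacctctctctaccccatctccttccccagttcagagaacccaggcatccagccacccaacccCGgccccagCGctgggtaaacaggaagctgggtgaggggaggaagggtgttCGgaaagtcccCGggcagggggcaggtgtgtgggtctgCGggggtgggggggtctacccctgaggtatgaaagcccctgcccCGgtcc
The 250 bases of Tnf held 10 CpGs and those of Ltb 6, where the median of the 32851 promoters in the RefSeq table was 6. In a window that also takes in 50 bases after the start, the Tnf promoter held 11 CpGs, the first 221 bases before the start and the last 17 bases after it, a span of 238 bases. The deposited region chr17:35338934-35339172 had the same number of CpGs over the same span, so it is called the Tnf start region here. A run of 11 CpGs over exactly 238 bases was found in 0.183% of the promoters. In the same way the 6 CpGs of the Ltb promoter, from 139 to 6 bases before the start, matched the 6 CpGs and 133 bases of the region chr17:35331313-35331446, and such a run was found in 0.916% of the promoters. No region matched the Lta promoter, and the deposited region at Lta is placed only by its coordinates. Lta lies on the minus strand at about chr17:35340100-35342300, so this region, chr17:35342112-35342173, lies inside the gene near its start.

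The motif TATAAA, the core of a TATA box, began 29 bases before the start of Tnf and was found on either strand in 12.4% of the 250-base promoters. A TGANNTCA motif, which is its own reverse complement and resembles a cyclic AMP response element, began 107 bases before the start of Tnf and was found in 11.9% of the promoters. Neither overlapped a CpG in the printed sequence. The consensus for NF-kB, a family of transcription factors that TNF and lymphotoxin receptors activate, was matched on the reverse strand of the Ltb promoter from 87 bases before the start and in 7.25% of the promoters. Unlike the motifs of Tnf, this match overlapped a CpG in the printed sequence, as it began on the G of the pair. The NF-kB consensus was not matched in the 250 bases of Tnf. These are matches of letters, and binding was not measured.

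Coverage of the locus was similar in all libraries. Total calls per library ran from 24682973 to 30727568, and the 14 complete regions took 0.00712 to 0.00818% of each library's calls at the regions compared. The fewest calls behind a value in those regions were 33 and the most 516. A call is a read's verdict, methylated or not, at 1 CpG, and a region's level is given as the percentage of its calls that were methylated. Group values are means ± SD of 2 libraries, and intervals for a single library are 95% Wilson intervals, which cover counting error only and are too narrow where calls share a read. For a library without a methylated call, the limit given is instead 3 calls of the total.

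In control epithelium the locus alternated between nearly unmethylated and methylated stretches. The Tnf start was unmethylated, while the 4 regions behind it stood at group means of 53.0 to 73.3%. Of the 14 complete regions, 5 stood under 15%, 5 between 30 and 60% and 4 above 60% in control. Among these 14 regions, which share their libraries, those denser in CpGs tended to be less methylated. The Spearman correlation between CpG density and control level was -0.73. The Lta region chr17:35342112-35342173 went the other way. It was among the densest of the locus, at 9.84 CpGs per 100 bases, yet stood at 92.9% in control replicate 0. It was left out of the correlation because control replicate 1 had no value there.

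**Figure D1:**
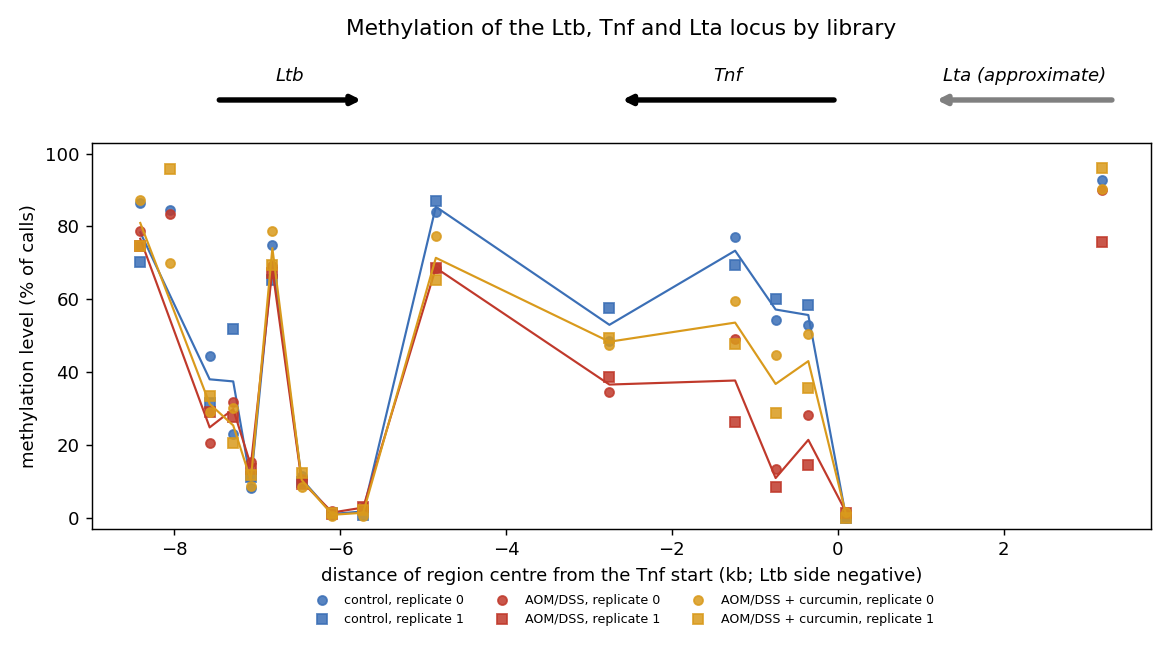
Methylation level in percent of calls (vertical axis) of the 16 regions against the distance of their centres from the Tnf start in kilobases (horizontal axis). Circles and squares are the 2 libraries of each group, lines join group means over the 14 complete regions, and arrows show the genes in their direction of transcription, with lengths from GRCm38 for Ltb and Tnf. The lines part inside Tnf and lie together at the Tnf start and in the CpG-dense part of Ltb.

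At the Tnf start region (11 CpGs), no methylated call was found among 159 calls in control replicate 0, which allows a level of up to 1.89%, nor among 113 calls in control replicate 1, which allows up to 2.65%. AOM/DSS replicate 0 had 2 methylated calls of 123 (1.63%, interval 0.447 to 5.74%) and replicate 1 had 2 of 148 (1.35%, interval 0.371 to 4.79%). With curcumin, replicate 0 had 2 of 133 (1.504%, interval 0.413 to 5.32%) and replicate 1 had 0 of 110, which allows up to 2.73%. The start of Tnf was therefore nearly free of methylation in all 6 libraries, and their counting intervals overlap.

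The level was much higher on the gene side of this region. Over the 122 bases to the next region the control level went from 0% to 55.7%. Among 52332 pairs of neighbouring regions at most 200 bases apart, 6.29% differed by at least 50 points in control, and 4.40% by at least as much as this pair. The same step was 19.9 points in AOM/DSS and 42.3 points with curcumin.

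The first region inside the gene, chr17:35338382-35338812 with 16 CpGs, lies 139 to 569 bases after the Tnf start and carries the most calls of the locus. Control replicate 0 stood at 53.0% (interval 48.0 to 57.9%) and control replicate 1 at 58.4% (interval 53.5 to 63.1%). AOM/DSS replicate 0 stood at 28.2% (interval 24.3 to 32.5%) and replicate 1 at 14.5% (interval 11.8 to 17.8%). Both AOM/DSS libraries lay below both controls, and their own intervals did not overlap each other. With curcumin, replicate 0 stood at 50.4% (interval 45.6 to 55.2%) and replicate 1 at 35.7% (interval 31.3 to 40.2%). In level, both curcumin libraries lay above both AOM/DSS libraries and below both controls. The interval of curcumin replicate 0 overlapped those of both controls, and that of curcumin replicate 1 overlapped that of AOM/DSS replicate 0. The group means were 55.7% ± 3.83 in control, 21.4% ± 9.68 in AOM/DSS and 43.0% ± 10.4 with curcumin (SD, n = 2 each).

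The second region, chr17:35338139-35338267 with 5 CpGs, lies 684 to 812 bases after the start. It stood at 54.3% and 60% in control, at 13.5% and 8.33% in AOM/DSS and at 44.7% and 28.8% with curcumin, each time in replicates 0 and 1. These values rest on 65 to 96 calls, and the intervals reached from 44.2 to 71.0% over the controls, from 4.28 to 22.1% over AOM/DSS and from 19.7 to 55.3% over the curcumin libraries. The order of the groups was that of the first region, again with no overlap between the library levels of any pair of groups. The intervals of the curcumin libraries did overlap those of control and of AOM/DSS. Its difference between AOM/DSS and control, -46.3 points, was the largest of the locus in any comparison.

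In the third region, chr17:35337598-35337831 with 8 CpGs, 1120 to 1353 bases after the start, control replicates 0 and 1 stood at 77.1% and 69.5%. AOM/DSS stood at 49.0% and 26.4%, and curcumin at 59.6% and 47.6%, so the curcumin libraries lay below both controls but overlapped AOM/DSS. The group means were 73.3% ± 5.396, 37.7% ± 16.0 and 53.6% ± 8.44 (SD, n = 2 each).

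The fourth, chr17:35335967-35336431 with 13 CpGs, lies 2520 to 2984 bases after the start and so reaches past the end of Tnf, whose length in GRCm38 is 2641 bases. Its controls stood at 48.5% and 57.5%, the AOM/DSS libraries at 34.5% and 38.6%, and the curcumin libraries at 47.3% and 49.4%. The curcumin libraries lay above both AOM/DSS libraries here and overlapped the controls. AOM/DSS minus control was -16.4 points, smaller than the -34.3, -46.3 and -35.6 points of the 3 regions nearer the start, and whether it differs from them was not tested.

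**Figure D2:**
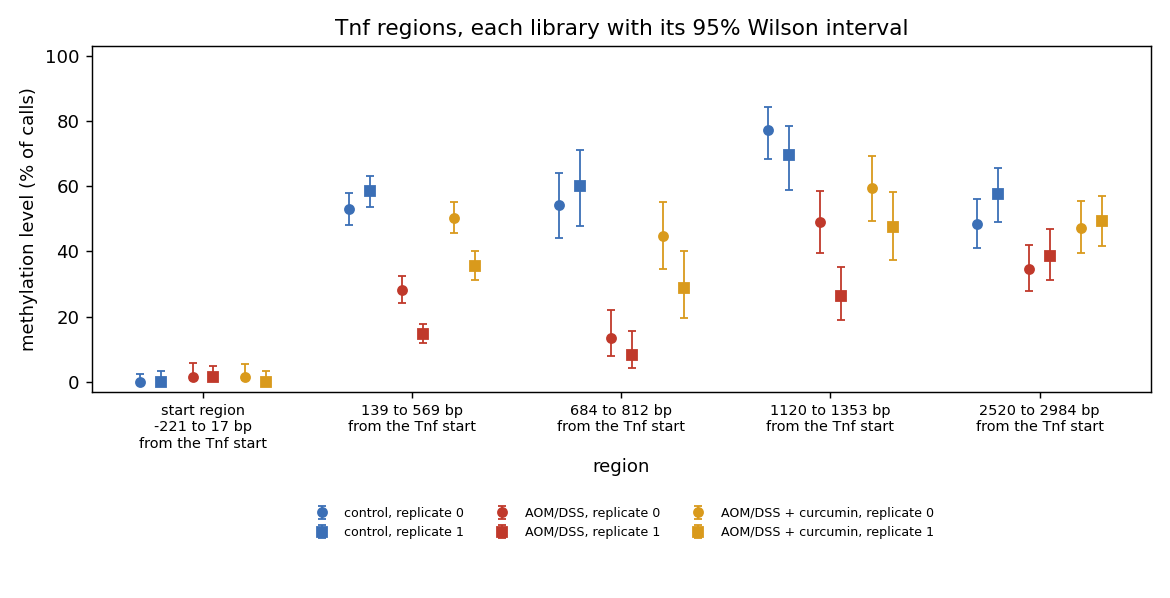
Methylation level in percent of calls (vertical axis) of the 5 Tnf regions, ordered by distance from the Tnf start (horizontal axis), with the 95% Wilson interval of each library as bars. The control mean is highest and the AOM/DSS mean lowest in each of the 4 regions after the start, and all libraries lie under 2% in the start region.

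Averaged over these 4 Tnf regions, control stood at 59.8% ± 2.195, AOM/DSS at 26.6% ± 6.61 and curcumin at 45.4% ± 7.16 (SD, n = 2 each). The replicates of each group lay apart by amounts that varied from region to region. In the 3 regions within the gene, the controls were 5.42, 5.65 and 7.63 points apart, from the start onward. AOM/DSS replicate 1 lay below replicate 0 by 13.7, 5.15 and 22.6 points, and curcumin replicate 1 below replicate 0 by 14.7, 15.9 and 11.9 points, in the same order. In the fourth Tnf region the controls were the farther apart, by 8.98 points against 4.097 in AOM/DSS and 2.07 with curcumin. Across the 41414 regions with an AOM/DSS level of 20 to 80% and at least 50 calls in every library, the median gap between the AOM/DSS replicates was 5.23 points. Of these regions, 9.91% had a gap of 13.7 points or more, 50.6% one of 5.15 points or more and 1.103% one of 22.6 points or more. The second Tnf region, with an AOM/DSS mean of 10.9%, lies outside that range of levels. Across the 39086 such regions in the curcumin group the median gap was 5.199 points and the 95th percentile 16.3 points, and across the 38395 such regions in control the median gap was 5.88 points. The 3 regions lie within 1353 bases of the Tnf start and come from the same DNA, so they are not independent measurements of either library.

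At Ltb the groups lay closer together. Its promoter region, matched above, stood at 44.4% and 31.6% in control, at 20.6% and 29.0% in AOM/DSS and at 29.2% and 33.3% with curcumin, on 33 to 62 calls. Both AOM/DSS libraries lay below both controls, by a mean of -13.2 points, but the counting intervals of all 6 libraries overlapped. Without control replicate 0 the difference was -6.77 points. The next region, chr17:35331609-35331718 with 7 CpGs, 157 to 266 bases after the Ltb start, had controls far apart at 23.1% and 51.8%. AOM/DSS stood there at 31.9% and 27.8% and curcumin at 30.2% and 20.5%, and both groups overlapped the controls.

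Further into Ltb, 1 methylated region stood between low ones. From 601 to 766 bases after the start (chr17:35332053-35332218, 6 CpGs), all libraries lay between 65.4% and 78.8%. The regions before and after it, chr17:35331828-35331924 and chr17:35332328-35332650, lay between 8.21% and 15.4% in all libraries. Towards the end of Ltb the densest region of the locus, chr17:35332685-35333034 with 42 CpGs, stood at 0.408 to 1.80%, and its neighbour chr17:35333070-35333391 with 21 CpGs at 0.510 to 2.86%. This neighbour lies 1618 to 1939 bases after the Ltb start and so reaches past the end of Ltb, whose length in GRCm38 is 1799 bases. The CpG-dense DNA at the end of Ltb was low in every library, as the Tnf start was. Before Ltb, the region chr17:35330477-35330609 stood at 70.2 to 87.3% with no group apart from another.

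**Figure D3:**
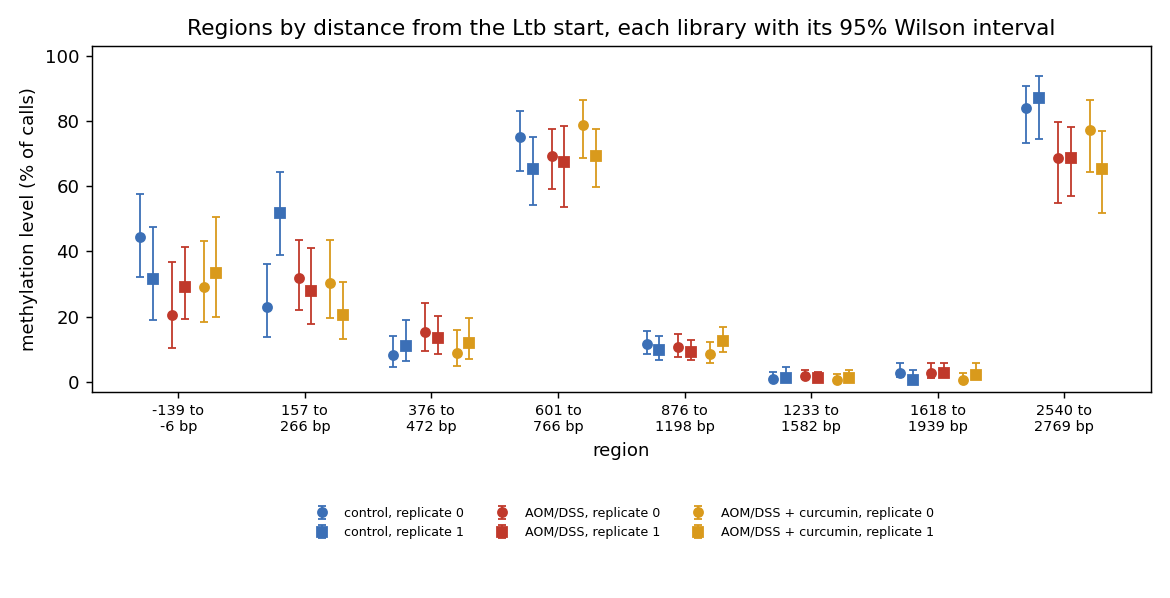
Methylation level in percent of calls (vertical axis) of the regions from the Ltb start to the DNA behind the gene, labelled by their distance from the Ltb start (horizontal axis), with the 95% Wilson interval of each library as bars. Both controls lie above all other libraries in the last region, at 83.8% and 87.0%.

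Between Ltb and Tnf, the region chr17:35333992-35334221 with 6 CpGs stood at 83.8% and 87.0% in control, at 68.6% in both AOM/DSS libraries and at 77.4% and 65.4% with curcumin, on 46 to 70 calls. Both treated groups lay below both controls, by -16.8 and -14.0 points, and curcumin overlapped AOM/DSS. Without curcumin replicate 1 the latter difference was -8.03 points. Unlike inside Tnf, curcumin replicate 1 lay below both AOM/DSS libraries here.

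At Lta 1 region was covered, chr17:35342112-35342173 with 6 CpGs. It was highly methylated, at 92.9% in control replicate 0, 90.0% and 75.7% in AOM/DSS and 90.3% and 96.2% with curcumin. With 20 to 37 calls and a single control value it entered no comparison. The incomplete region before Ltb, chr17:35330846-35330950, stood at 84.4% in control replicate 0, 83.3% in AOM/DSS replicate 0 and 70.0% and 95.7% with curcumin, on 20 to 32 calls.

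Over the 14 complete regions the mean level was 40.8% ± 0.242 in control, 28.9% ± 2.19 in AOM/DSS and 34.9% ± 3.65 with curcumin (SD, n = 2 each). The AOM/DSS group differed from control by a mean of -11.9 points and a median of -4.78 points, where the median over all 179922 complete regions was -0.264 points. Of the 14 regions, 6 were lower in AOM/DSS by at least 10 points with no overlap between the libraries (5.08% of all regions were), and 0 were higher (1.98%). Because the locus was chosen on this comparison, these counts only describe it. The 6 were the Ltb promoter region, the region between the genes and the 4 Tnf regions after the start.

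The comparison of AOM/DSS plus curcumin with AOM/DSS alone addresses the effect of adding curcumin, and it was not used to choose the locus. It does share the AOM/DSS libraries with the comparison that was, so a level that is low by chance in those libraries makes both differences larger. Curcumin was higher by at least 10 points with no overlap at 3 of the 14 regions (3.86% of all regions), namely the first, the second and the fourth Tnf region, and lower at 0 (2.17%). In edgeR's quasi-likelihood test with Benjamini-Hochberg adjustment over all regions, 0 of the 14 passed an adjusted p under 0.05 with at least 10 points, as did 0 of all 179922 regions (0% called). Before adjustment, 2 of the 14 regions were higher by at least 10 points with p under 0.05 (1.29% of all regions) and 0 were lower (0.706%), and limma on log2 ratios also gave 2 at that level and 0 after adjustment.

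These 2 were the first and second Tnf regions. The first differed by 21.6 points (edgeR, unadjusted p = 0.000364, adjusted p = 0.684), and its adjusted p ran from 0.191 to 1 over the alternatives. The second differed by 25.8 points (edgeR, unadjusted p = 0.000222, adjusted p = 0.627), with adjusted p-values from 0.329 to 1. Leaving out 1 library at a time gave differences of 14.3 to 29.0 points in the first and 17.9 to 33.8 points in the second, each lowest without curcumin replicate 0 and highest without curcumin replicate 1. The third Tnf region differed by 15.9 points (edgeR adjusted p = 0.940) and by 4.58 points without AOM/DSS replicate 1, and the fourth by 11.8 points (edgeR adjusted p = 0.949). The 9 complete regions of Ltb and its flanks differed by -4.48 to 6.44 points.

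Curcumin against control, the comparison of the fully treated with the untreated epithelium, shares the control libraries with the comparison that chose the locus. Curcumin was lower by at least 10 points with no overlap at 4 of the 14 regions (3.01% of all regions), the first 3 Tnf regions and the region between Ltb and Tnf, and higher at 0 (1.94%). Again 0 of the 14 passed edgeR's test after adjustment, and 0 of all regions did (0% called). Before adjustment, 0 regions were higher by at least 10 points with p under 0.05 (0.562% of all regions) and 2 were lower (0.899%), the second Tnf region at -20.4 points (edgeR, unadjusted p = 0.0230) and the third at -19.7 points (edgeR, unadjusted p = 0.0179), both with an adjusted p of 1. The second differed by -12.5 points without curcumin replicate 1. Limma gave 1 at that level and 0 after adjustment. The 1 was the region between Ltb and Tnf, at -14.0 points (limma, unadjusted p = 0.0451). The Tnf regions chr17:35338139-35338267 and chr17:35337598-35337831 did not reach that level with limma (unadjusted p = 0.0618 and 0.0848). With edgeR the unadjusted count was 2 with at least 50 calls, and 3 with a replicate block or with only the 4 libraries compared. These settings kept both libraries of each group compared, so they do not show whether the count holds without 1 library. For fits without 1 library, only differences are given here. Without curcumin replicate 1 the third Tnf region differed by -13.8 points. The first Tnf region differed by -12.7 points (edgeR adjusted p = 1), and by -5.30 points without curcumin replicate 1. Passing in neither comparison does not show that the curcumin level equals that of control or of AOM/DSS.

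**Figure D4:**
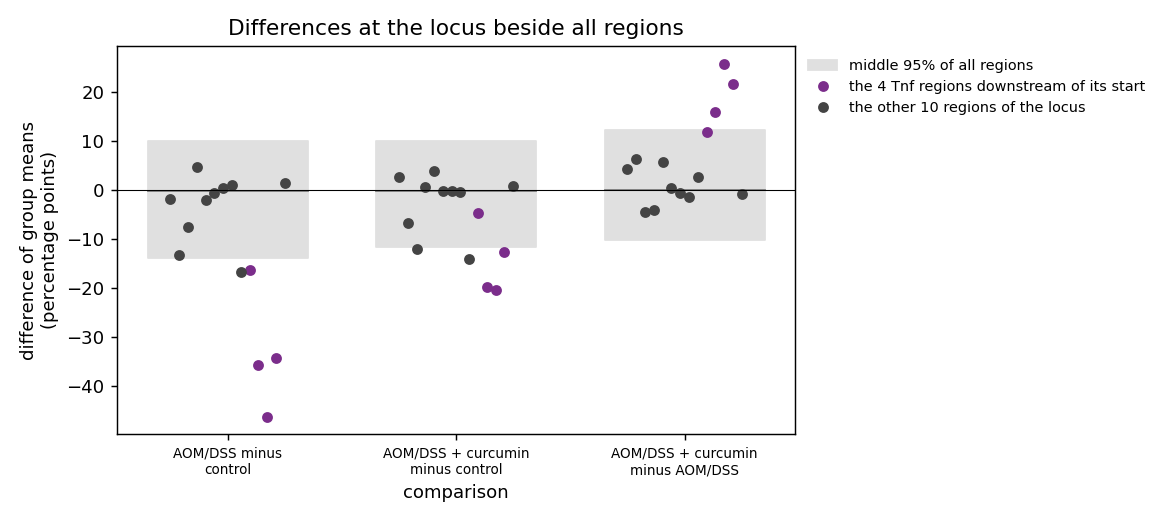
Difference of group means in percentage points (vertical axis) for the 3 comparisons (horizontal axis). Points are the 14 complete regions of the locus, with the 4 Tnf regions after the start in purple, grey bands hold the middle 95% of all 179922 regions and grey lines mark their medians. The 4 purple points reach -46.3 points in the first comparison (AOM/DSS minus control) and 25.8 points in the one drawn last (AOM/DSS plus curcumin minus AOM/DSS).

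The DNA around the locus was compared in windows of the same length, 14000 bases, on each side. In the gene order of GRCm38 the neighbours are Lst1 and Aif1 on the Ltb side and Nfkbil1 and Atp6v1g2 on the Lta side, and the regions of the windows were not tied to them. The 8 regions on the Lta side averaged 65.9% ± 0.551 in control, 64.5% ± 0.529 in AOM/DSS and 65.0% ± 0.363 with curcumin (SD, n = 2 each), and 0 of them was apart by 10 points in any of the 3 comparisons. The 3 regions on the Ltb side averaged 29.2% ± 0.210 in control, 21.7% ± 1.39 in AOM/DSS and 27.6% ± 0.754 with curcumin (SD, n = 2 each), a difference of -7.53 points between AOM/DSS and control and of 5.94 points between curcumin and AOM/DSS, where the 14 regions of the locus had 5.97 points. They included 1 that was apart by 10 points, chr17:35326992-35327179 with 5 CpGs. It stood at 75.9% and 87.2% in control, 66.2% and 62.1% in AOM/DSS and 81.3% and 76.2% with curcumin, on 39 to 79 calls. Its differences were -17.5 points between AOM/DSS and control and 14.6 points between curcumin and AOM/DSS. The others on the Ltb side, at 0 to 12.1% in all libraries, differed less. Their differences were 0 and -5.15 points between AOM/DSS and control, and 1.35 and 1.87 points between curcumin and AOM/DSS. Over the rest of chromosome 17 the mean difference between AOM/DSS and control was -0.890 points, against -0.898 points over all regions outside the locus.

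The pattern of the first Tnf region was then looked for among the 105140 regions outside the locus with at least 5 CpGs and 50 calls in every library, by the root mean square difference in level over the 6 libraries. The closest was chr4:88161563-88161718, at 4.44 points, with group means of 53.5% in control, 25.4% in AOM/DSS and 44.6% with curcumin. Next came chr2:91905502-91905706 at 4.47 points, chr2:75447534-75447853 at 5.77 points, chr10:98544195-98544465 at 5.89 points and chr10:44100464-44100667 at 7.08 points. AOM/DSS replicate 1 was the lowest library in each of the 5 regions, as in the first Tnf region, and this likeness is part of how they were found.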

How the data were processed

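Per the labels' protocols, libraries were made with Agilent's SureSelectXT Mouse Methyl-Seq capture kit and sequenced after bisulfite conversion. Bisulfite does not separate methylated from hydroxymethylated cytosine. Bismark 0.15.0, ChIPseeker 1.10.3 and R 3.4.0 with build mm9 are named in the submitters' processing notes, without a statement of the step each served. For every region, the deposited files hold counts for the library: the CpGs, the calls over them and the methylated calls, with no value on fewer than 20 calls.

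Starts and ends were taken as the first and last CpG, so positions may be off by 1 base. All 6 libraries entered 1 fit over the 179922 complete regions with edgeR 4.0.16 in R 4.3.3, adjusted by Benjamini-Hochberg. It was a quasi-likelihood fit with a coefficient per library for coverage and per group for methylation. The code of the fit was tested on simulated data with a fixed spread between libraries, which does not measure its error rate in these libraries. Regions were called at an adjusted p under 0.05 and 10 points. Alternatives were limma 3.58.1 on log2 ratios with 0.5 added to each count, at least 50 calls, other minimum differences, only the 4 libraries compared, a replicate block, pooled calls and each library left out. The exact permutation test of 2 against 2 libraries cannot reach 0.05 and was not used. Tables were made in Python 3.11.15 (pandas 2.3.3, numpy 2.4.6, scipy 1.17.1, matplotlib 3.10.9).

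The locus, the lists and the rules were chosen with earlier results of these data known. Regions within 1 kb of the Tnf start, and regions with group means 10 points apart in any comparison, are given library by library, the others by range. Likeness was ranked among regions of at least 5 CpGs and 50 calls. Receptor and signalling genes of the TNF and lymphotoxin pathways, and cell type markers, were not analysed here, because no annotation of build mm9 was used.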

Additional observations from a re-analysis of the deposited data

How the results depend on the processing

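Neither curcumin comparison had a called region in the locus under any alternative, so the count stayed at 0 with at least 50 calls, with no minimum difference or 20 points, with only the 4 libraries compared, with limma, and without each library in turn. With a replicate block it was also 0 in both comparisons. The replicate numbers pair nothing in the labels, and the correlations over regions of the replicate differences between groups were 0.0548, 0.0121 and 0.00754. Over the locus, the difference between AOM/DSS and control was -14.1 points with pooled calls, which give the deeply covered first Tnf region more weight, against -11.9 points as a mean over regions. Without each library in turn it ran from -13.5 to -10.4 points, that of curcumin against AOM/DSS from 3.39 to 8.55 points and that of curcumin against control from -8.53 to -3.37 points. At the Ltb region chr17:35331609-35331718 the difference between curcumin and control turned from -12.1 to 2.27 points without control replicate 1, and was -26.4 points without control replicate 0. At the Ltb promoter, with 33 to 62 calls, each library's counting interval was wider than the difference of -13.2 points between AOM/DSS and control.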
